A study of Mus musculus with 14 samples.

Results

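The 7 genes described here, Ncr1, Klrb1c, Klrk1, Klrd1, Klrc1, Klrg1 and Klre1, encode receptors that are used to recognise natural killer (NK) cells, and their RNA was measured in samples labelled as CD4+ T-cells. They were taken as every probe whose gene name equals one of the 7, which gave 13 of the 56605 probes on the array and 7 of its 36870 gene names. The genes were selected on their measured log2 levels, which earlier results of the same arrays had shown to be high on a single sample, Roquin san/+ replicate F. Their levels on that sample are therefore given as a description, with no test.

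The 14 samples were CD4+ T-cell RNA, 7 from mice of the genotype Roquin san/+ and 7 from wild-type mice, each hybridised to its own single-colour array with 60-base probes, so that the genotypes can be compared gene by gene. Roquin (Rc3h1) is an RNA-binding protein that represses messenger RNAs in T-cells, and Roquin san/+ mice are heterozygous for its sanroque allele, which wild-type mice lack. The labels give the genotype and no age, sex, strain background or treatment, and they name neither the organ the cells came from nor the sort that isolated them. Nothing says that each sample came from a mouse of its own, so the p-values below measure only the spread between these samples, which may in part be technical.

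The arrays of wild-type replicate E and of replicate G of Roquin san/+ had spots that lay 2 grid rows away from the probe names, and these were moved back before any value was read. With the move, their correlation with the median array rose from 0.01 to 0.89 and 0.91. Their lowest signals were not repaired by it and lay at -4.00 and -4.32 on the log2 scale used here, against -9.94 to -6.66 on the 12 well-placed arrays, so that dim probes have only an upper bound on them. Only 2 of the 13 probes were well above background on each of these 2 arrays. Roquin san/+ replicate C was dim throughout, with a 75th percentile over all probes of 84.6 signal units against 284 to 811 on the others. Levels are log2 of the background-subtracted signal minus the array's 75th percentile, so that 0 is a bright probe and each unit is a doubling. That percentile was taken only over probes well above background on all 12 well-placed arrays, and not over all probes. Group values are given over the 6 well-placed arrays per genotype. Slide 1 held 5 of the Roquin san/+ samples with 2 wild-type ones, and slide 2 the reverse, 2 and 5.

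NK cells are innate lymphocytes that decide whether to kill a neighbouring cell from the balance of activating and inhibitory receptors. Ncr1 (NKp46) and Klrk1 (NKG2D) are activating receptors that signal through the small adaptor proteins Fcer1g, Tyrobp and Hcst. Klrd1 (CD94) pairs with Klrc1 (NKG2A) into an inhibitory receptor for the non-classical class I molecule Qa-1, encoded by H2-T23. Klrb1c encodes NK1.1, an activating lectin-like receptor of C57BL/6 mice, Klrg1 an inhibitory receptor for cadherins such as Cdh1, and Klre1 a lectin-like receptor that pairs with other family members. Klrg1, Klrk1 and Klrd1 are also known from activated or memory T-cells, whereas Ncr1 is largely restricted to NK cells and related innate lymphocytes.

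Of the genes, 6 lie on chromosome 6, in the NK gene complex or near it, and Ncr1 lies on chromosome 7. In the gene order of RefSeq (GRCm38.p6), Klre1, Klrd1 and Klrk1 follow each other with no other protein-coding gene between them. The array's own coordinates, in mm9, place the Ncr1 probe at chr7:4296176-4296235, the Klrd1 probe at chr6:129548391-129548450, the Klrc1 probe at chr6:129628315-129628374, and the brightest probes of Klre1 at chr6:129534195-129534254, of Klrk1 at chr6:129562442-129562501, of Klrb1c at chr6:128728603-128728662 and of Klrg1 at chr6:122220629-122220688. Of the 13 probes, 2 cover more of the genome than their 60 bases and therefore cross an intron: the second Klre1 probe at chr6:129530081-129532024 and the second Klrk1 probe at chr6:129562482-129562771. Probes are numbered here from the brightest to the dimmest of a gene. No exon annotation of mm9 was used here, so exons and untranslated regions are not assigned.

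The probe sequences, as deposited and in the sense of the transcript, are shown for the genes whose differences between arrays are described below, since a level is only that of the letters on the array.
Ncr1: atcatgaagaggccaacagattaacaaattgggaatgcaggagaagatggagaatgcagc
Klrd1: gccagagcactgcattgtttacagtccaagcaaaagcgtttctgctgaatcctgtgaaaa
Klrc1: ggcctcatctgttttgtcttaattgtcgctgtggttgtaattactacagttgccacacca
Klrb1c, dimmest probe: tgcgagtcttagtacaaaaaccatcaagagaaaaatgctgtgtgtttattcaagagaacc
Klre1, brightest probe: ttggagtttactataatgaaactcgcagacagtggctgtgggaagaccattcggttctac
Klre1, intron-crossing probe: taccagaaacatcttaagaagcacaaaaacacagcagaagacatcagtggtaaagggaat

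The 2 Klrk1 probes share a run of 20 bases, shown in capitals in a stretch of 30 bases from each, and are therefore not independent measurements.
Klrk1, brightest probe: CCTTGATTTCCTCCCAGATAtcccctactc
Klrk1, second probe: actctcagcaCCTTGATTTCCTCCCAGATA
No other pair of probes of the same gene shared more than 7 bases in a row.

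Ncr1, the NKp46 receptor, was often near background. Its level on the Roquin san/+ arrays had a lowest value of -7.50, a median of -5.40 and a highest of -1.86, and on the wild-type arrays a lowest value of -8.23, a median of -6.40 and a highest of -4.56. It was well above background on 4 of 6 arrays of each genotype, the Roquin san/+ replicates A, C, D and F and the wild-type replicates A to D. The highest value was that of Roquin san/+ replicate F, and without it the Roquin san/+ arrays ended at -3.88. The genotypes overlapped.

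Klrk1, which was well above background on all 12 well-placed arrays with its brightest probe, ran from -4.33 through a median of -3.26 to -0.37 in Roquin san/+ and from -3.70 through -3.13 to -2.34 in wild-type samples. Without replicate F the Roquin san/+ arrays reached -2.90, below the highest wild-type array.

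Klrb1c had 3 probes, and the brightest was well above background on all 12 arrays. It ran from -3.10 through -2.46 to -0.07 in Roquin san/+ and from -2.48 through -1.70 to -1.33 in wild-type samples. Apart from replicate F, whose value was the highest of all, no Roquin san/+ array was above -2.01, whereas 4 of the 6 wild-type arrays were. The other 2 probes had medians of -3.70 and -5.60 in Roquin san/+ and -3.01 and -4.90 in wild-type samples. The 3 probes followed each other across the 12 arrays with r of 0.94 in all 3 pairs, on log2 levels that share the same arrays.

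Klrd1 was well above background on all 12 well-placed arrays. It ran from -2.63 through -0.56 to 1.32 in Roquin san/+ and from -0.99 through -0.49 to -0.01 in wild-type samples. The lowest value was that of the dim replicate C and the highest that of replicate F, and the other 4 well-placed Roquin san/+ arrays lay between -1.43 and -0.38. Its partner Klrc1 was well above background on 1 of 6 Roquin san/+ arrays, replicate F at -4.01, and on 4 of 6 wild-type arrays, replicates A to D, between -6.75 and -5.43. Klrc1 and the dimmest Klre1 probe, which was well above background on none of the 12 arrays, did not pass the filter and were not tested across all probes.

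Klrg1 had the narrowest range of the 7 genes over the 11 arrays other than replicate F, at 1.19 units. Its brightest probe ran from -2.45 through -2.11 to -1.34 in Roquin san/+ and from -3.08 through -2.63 to -1.93 in wild-type samples. Its second probe ran from -3.69 through -3.08 to -2.27 and from -4.13 through -3.65 to -2.95. Both probes were well above background on all 12 well-placed arrays. Of the members, Klrg1 was the gene on which replicate F stood apart least, and on its second probe the well-placed replicate C was marginally higher, at -2.27 against -2.32.

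Klre1, with its brightest probe, ran from -6.02 through -4.77 to -1.44 in Roquin san/+ and from -6.59 through -5.01 to -4.01 in wild-type samples. The intron-crossing probe ran from -8.49 through -6.11 to -2.52 and from -7.85 through -6.77 to -5.52, and was well above background on 6 of the 12 arrays.

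**Figure D1:**
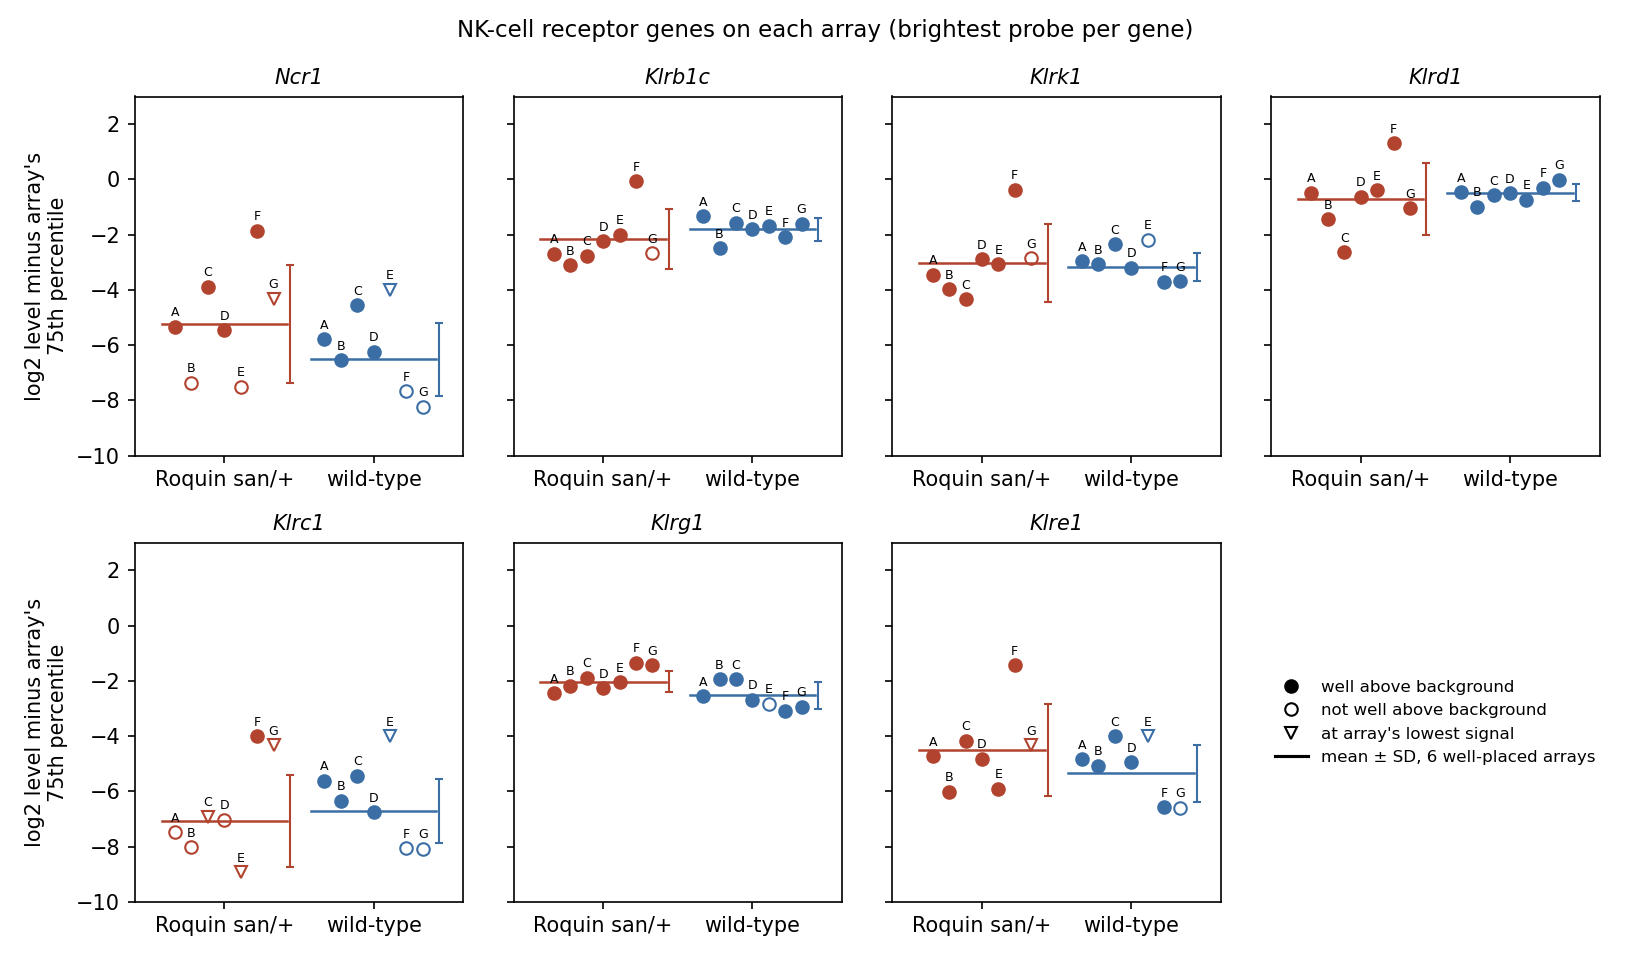
Level of the brightest probe of each of the 7 genes on each of the 14 arrays (y axis, log2 signal minus the array's 75th percentile; letters are replicates), with the mean and SD of the 6 well-placed arrays per genotype. Replicate F of Roquin san/+ is the highest well-placed array in all 7 panels, and the triangles of replicates G and E mark values that are only upper bounds.

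Roquin san/+ replicate F had the highest level of the 12 well-placed arrays for 11 of the 13 probes and for 7 of 7 genes by their brightest probe, where 12.2% of all tested probes were highest on it. Since the genes were chosen for this, it is no test. Over the whole array, 75.5% of probes were well above background on replicate F and 8.3% were at its lowest value. On the other well-placed arrays these shares ran from 53.4% to 64.6% and from 18.3% to 30.8%. The part of this in the ratios below was not tested. Over the highest of the other 11 well-placed arrays, replicate F was 5.96-fold higher for Klre1, 4.05-fold for Ncr1, 3.91-fold for Klrk1, 2.51-fold for Klrd1, 2.4-fold for Klrb1c and 1.46-fold for Klrg1. Over the median of those 11 arrays the ratio was 20.8-fold for Ncr1 and 11.4-fold for Klre1, 7.06-fold for Klrk1, 4.07-fold for Klrb1c, 3.55-fold for Klrd1 and 1.90-fold for Klrg1. With normexp background correction, the dim Roquin san/+ replicate C was above replicate F for Klrg1 (-1.08 against -1.38) and Klrc1 (-2.55 against -3.45). However, Klrc1 was at the lowest signal of replicate C and not well above background on it. Normexp put the dimmest Klre1 probe, also at that lowest signal, at -2.50 there. For Ncr1 and Klre1 replicate C then came nearer, at -2.11 and -2.18 against -1.74 and -1.34 on replicate F. For Klrb1c, Klrk1 and Klrd1 replicate F stayed the highest well-placed array. In such samples more cells of a type and more RNA per cell cannot be told apart.

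**Figure D2:**
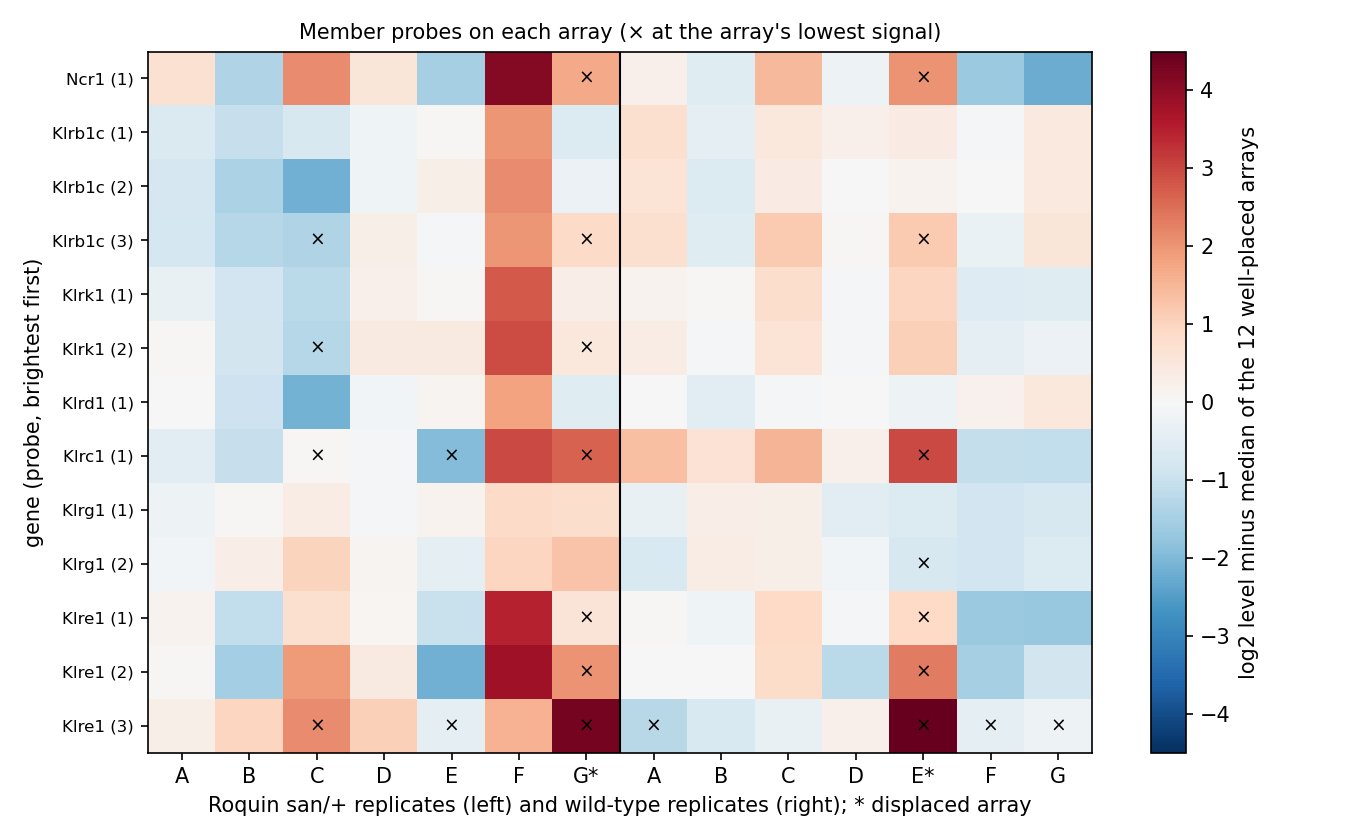
Each of the 13 probes (rows) on each array (columns), as the log2 level minus the median of the 12 well-placed arrays; crosses mark values at an array's lowest signal. The column of Roquin san/+ replicate F is the highest well-placed one in 11 rows, and the displaced arrays G and E carry crosses in 7 rows each.

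Markers of other cell types were also high on replicate F. All marker lists are means of log2 levels over their genes. The B-cell list of 8 genes was at 1.21 on replicate F, from -4.51 to -1.76 on the other 5 well-placed Roquin san/+ arrays and from -4.69 to -0.66 on the wild-type arrays, and 7 of its 8 genes were highest on replicate F. The neutrophil list was at 3.21 on replicate F, from -1.88 to 0.01 on the remaining Roquin san/+ arrays and from -3.92 to 1.59 on the wild-type arrays, with 4 of its 4 genes highest on replicate F. The myeloid list of 8 genes was at 0.89, from -2.83 to -1.78 and from -3.57 to -1.71, with 7 of 8 genes highest there, and the erythroid list of 5 was at 2.22, from -5.36 to -0.52 and from -6.40 to 0.73, with 3 of 5. Both genes of the CD8 T-cell list, Cd8a and Cd8b1, were highest on replicate F, at 0.26 and 2.57, against highest values of -3.84 and -0.51 elsewhere. The list of 7 CD4 T-cell genes was at 2.15 on replicate F, where its values elsewhere spanned 2.43 to 3.75 in Roquin san/+ and 2.55 to 3.75 in wild-type samples. Of its genes, 3 of 7 were lowest on replicate F and 0 were highest. Cd4 was at 0.22 there and no lower than 1.0 on the other 11, while Cd3d, at 3.14, lay above the lowest of the others at 2.70. The 2 genes kept as markers of NKT or innate-like T-cells, Zbtb16 and Cd160, averaged -4.41 on replicate F, from -5.16 to -4.73 on the remaining 5 well-placed Roquin san/+ arrays and from -4.82 to -4.12 on the wild-type arrays. Of these 2 genes, Cd160 was highest on replicate F, at -5.20 with at most -5.36 elsewhere, and Zbtb16 was not. The CD4 T-cell genes were well above background on all 12 well-placed arrays. The part of these cell types in the members' levels was not tested.

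**Figure D3:**
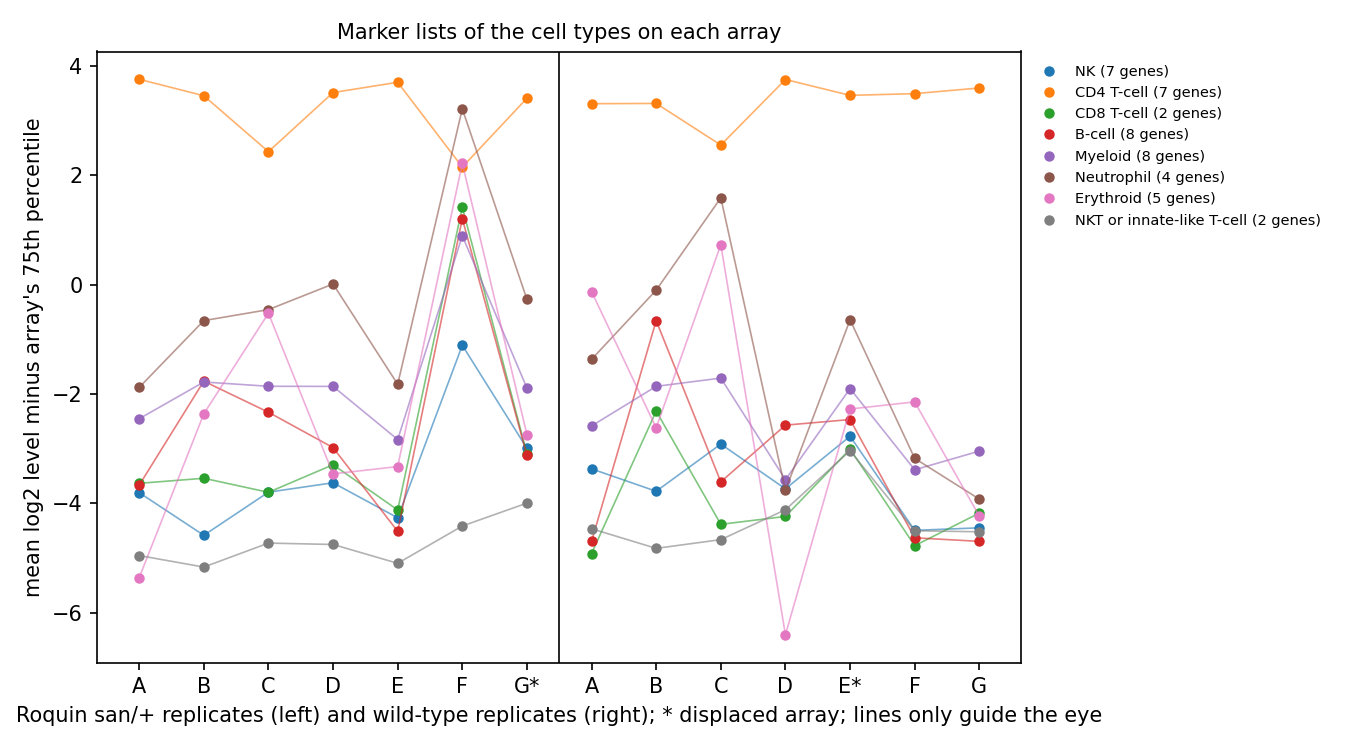
Mean log2 level (y axis, relative to the array's 75th percentile) of each marker list on each array (x axis, with the 2 displaced arrays starred). On Roquin san/+ replicate F the NK list is at -1.11, the B-cell, myeloid, neutrophil, erythroid and CD8 T-cell lists are at their highest, and the CD4 T-cell list is at its lowest of 2.15.

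Between the genotypes, no member passed the test. In limma's fit across 33114 probes on all 14 arrays, 0 of the 11 member probes tested had an adjusted p below 0.05, as 0% of all probes did. At an unadjusted p below 0.05 the fit called 1013 probes, or 3.06%, and 2 of the 11 member probes, both of Klrg1. The groups of the 6 and 6 well-placed arrays overlapped for all 13 probes. The share over all probes is not given here, so this only describes the members.

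Klrg1 was 0.62 higher in Roquin san/+ with its brightest probe (limma, SE 0.24, adjusted p = 0.883) and 0.79 higher with its second (SE 0.30, adjusted p = 0.883). The two-sided exact permutation test over the 3432 arrangements of the arrays gave p = 0.0245 and p = 0.0268 for the 2 probes, unadjusted. Without both displaced arrays the differences were 0.49 and 0.59, with exact p of 0.0844 and 0.0909. Leaving out replicate F as well gave 0.36 and 0.46, with exact p of 0.167 and 0.173.

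Klrb1c differed by -0.43, -0.48 and -0.45 with its 3 probes (limma, adjusted p from 0.883 to 0.887). With normexp background correction the dimmest probe turned to 0.15, and with normexp and without both displaced arrays the middle and dimmest probes turned to 0.06 and 0.37. On the dim Roquin san/+ replicate C these 2 probes were not well above background, and normexp put them at -2.42 and -2.53. The part of replicate C in these turns was not tested. Without both displaced arrays and without replicate F, chosen as an alternative after seeing the data, the differences were -0.75, -0.99 and -0.91 with SE of 0.26, 0.40 and 0.39 (limma, adjusted p = 0.761). In that fit 4.76% of all probes and 3 of the 11 member probes, all of Klrb1c, had an unadjusted p below 0.05. The exact permutation test over the 462 arrangements of 5 and 6 arrays gave p = 0.0216, 0.0476 and 0.0649.

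Ncr1 differed by 1.04 (limma, SE 0.87, adjusted p = 0.883), and Klre1 by 0.66 and 0.71 (SE 0.65 and 0.86, adjusted p = 0.883 and 0.896). Klrk1 differed by 0.03 and 0.14 (SE 0.50 and 0.51) and Klrd1 by -0.24 (SE 0.44). None of these was larger than 2 SE. On both displaced arrays the Ncr1 and Klre1 values are only upper bounds. Without these arrays Ncr1 differed by 1.27 and Klre1 by 0.83 and 0.88. Klrc1, untested across all probes, differed by -0.35 in the group means over all 14 arrays, with an exact permutation p of 0.695. Its values on the displaced arrays are also only upper bounds, and without those arrays the difference was -0.35 too. When both displaced arrays were left out, 7.4% of all probes and 0 of the 11 member probes had an unadjusted p below 0.05, and 0 probes passed after adjustment with limma.

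**Figure D4:**
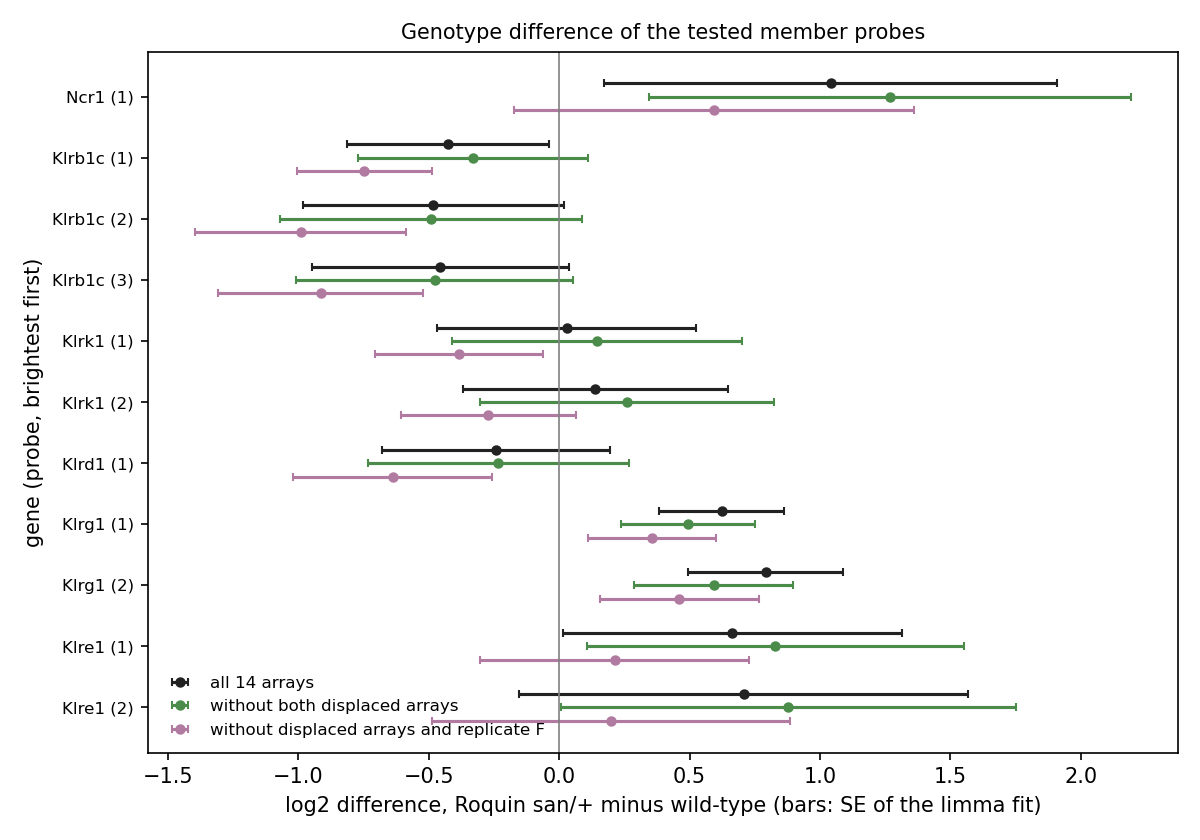
Log2 difference between Roquin san/+ and wild-type samples (x axis, points with SE of the limma fit) of the 11 tested probes, in the fit of all 14 arrays, without both displaced arrays, and without these and replicate F. In all 3 fits Klrg1 has a positive difference and Klrb1c a negative one (which turns for 2 of its probes with normexp), and Klrk1 changes sign without replicate F.

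The slides gave different values for some members. On slide 1 alone Ncr1 differed by 3.40 (SE 1.28), the brightest Klre1 probe by 2.45 (SE 1.07) and Klrg1 by 1.15 and 1.42 (SE 0.36 and 0.42). On slide 2 alone they differed by -1.06 (SE 0.83), -0.78 (SE 0.45), and 0.23 and 0.04 (SE 0.34 and 0.39). Each slide includes a displaced array, on which the Ncr1 and Klre1 values are only upper bounds. The interaction of genotype and slide had, for Ncr1, a size of -4.46 and, as for Klre1, an adjusted p of 0.433 in limma's fit. Slide 1 holds replicate F and 2 wild-type arrays, F and G, on which Ncr1 was not well above background. The myeloid list was at -3.39 and -3.04 on those 2 arrays against -3.57 to -1.71 over all wild-type arrays. Its lowest value was on wild-type replicate D, where Ncr1 was well above background. On wild-type replicates D, F and G the neutrophil list was at -3.76, -3.18 and -3.92, and the erythroid list at -6.40, -2.14 and -4.23.

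Among the members, Ncr1 and Klre1 moved together more closely than any other pair. Over the 11 well-placed arrays without replicate F, the brightest probes of the 7 genes gave 21 pairs, of which 1 passed after adjustment. The genes were chosen with their levels on these arrays known, so the p-values of the pairs only describe them and are no independent test. The permutations also exchanged arrays across genotypes and slides. Ncr1 and Klre1 had Pearson's r of 0.96 (permutation p = 2e-05, adjusted p = 0.00042) and Spearman's rho of 0.98 (permutation p = 1e-05, the smallest these 100000 permutations can give, adjusted p = 0.00021). Without the 2 arrays farthest from the median of Ncr1, Roquin san/+ replicate C and wild-type replicate G, r was 0.96 over 9 arrays, and within slide 1 and slide 2 it was 0.99 (5 arrays) and 0.97 (6 arrays). Ncr1 was not well above background on Roquin san/+ replicates B and E and wild-type replicates F and G, so its order there is that of background-level signals. The Ncr1 and Klre1 probes were lowest on wild-type replicates F and G. Roquin san/+ replicate F aside, they were highest on the dim Roquin san/+ replicate C and wild-type replicate C. The myeloid list was at -1.86 and -1.71 on these latter 2 arrays, and at -1.78 on Roquin san/+ replicate B, where Ncr1 was at -7.36 and Klre1 at -6.02. It was also at -1.86 on Roquin san/+ replicate D and wild-type replicate B. Other lists were also high on Roquin san/+ replicate C and wild-type replicate C. The erythroid list was at -0.52 and 0.73 there, and at -0.13 on wild-type replicate A. The neutrophil list was at -0.46 and 1.59, and at 0.01 on Roquin san/+ replicate D. The part of these lists in the relation was not tested.

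The partners Klrd1 and Klrc1 did not follow each other in the same way. Over those 11 arrays their r was -0.13 (permutation p = 0.708, adjusted p = 0.783) and rho was -0.46 (permutation p = 0.156, adjusted p = 0.273). Klrc1 followed Klre1 with r of 0.76 (permutation p = 0.00764, adjusted p = 0.0802), and without the 2 farthest arrays with 0.70. Klrb1c and Klrd1 had r of 0.65 (permutation p = 0.0196, adjusted p = 0.132). With replicate F included, all 21 pairs had r above 0, and without it 14 did. Klrc1 was well above background on only 5 of the 12 arrays, so its order on the others is that of background-level signals.

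Other genes of the NK pathway were taken from a list of 61, of which 57 had a probe under that name and 45 passed the filter. The list was chosen with earlier results of these data known, so the shares and medians below are a description and no test. Limma called 0 of the 45 higher and 0 lower in Roquin san/+. An unadjusted p below 0.05 was found for 7 of the 45, against 3.06% of all probes. A difference above 0 was found for 32 of the 45, against 56.0% of all probes. The median difference of the 45 was 0.50 over all arrays, 0.47 without both displaced arrays and 0.29 when replicate F was left out too. The median of all tested probes was 0.05, 0.07 and 0.06. Of the 57 genes, 35 were highest on replicate F among the well-placed arrays, where 12.2% of all tested probes were. The receptor genes Klra1 and Cd96, named after their values were seen, were lowest on it. Klra1 was at 0.32 there and no lower than 1.18 on the other well-placed arrays, and Cd96 was at -1.01 and no lower than -0.93.

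Of the adaptors, Tyrobp was at 2.82 on replicate F, from -0.88 to 0.20 on the other 5 well-placed Roquin san/+ arrays and from -2.55 to 0.99 on the wild-type arrays, and Fcer1g was at 2.18, from -1.88 to -0.47 and from -2.92 to -0.26. Both also serve receptors of myeloid cells. Hcst, the adaptor of Klrk1, was at 3.13 on replicate F, within the 2.03 to 4.34 of the remaining Roquin san/+ arrays. Their genotype differences were 0.98 (SE 0.62), 1.11 (SE 0.57) and -0.04 (SE 0.30), none called by limma. Without both displaced arrays those of Tyrobp and Fcer1g were 0.97 and 1.25, and without replicate F as well 0.42 and 0.71.

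Among the ligands, H2-T23, which encodes the ligand of Klrd1 and Klrc1, was at 4.66 on replicate F against 3.92 to 5.09 on the other 11, with a difference of 0.17 (SE 0.19). Clec2d, a ligand of the inhibitory receptor Klrb1b, was at -0.03 on replicate F, from -1.53 to 2.62 on the remaining Roquin san/+ arrays and from 1.01 to 2.10 on the wild-type arrays. Klrb1b itself was at -3.49 on replicate F against -6.71 to -3.47 elsewhere. Cdh1 was well above background on 4 of 12 arrays and was not tested. Klrc2, the activating relative of Klrc1, was at -3.69 on replicate F and no higher than -5.29 on the other 11.

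Of the 9 effector genes, 6 were highest on replicate F. Gzma, which encodes granzyme A, was at 3.97 on replicate F and no higher than 0.56 on the other 11 arrays, and the chemokine gene Ccl5 at 5.47 and no higher than 4.42. Nkg7, of cytotoxic granules, was at 2.64 on replicate F, from 0.31 to 1.75 on the remaining Roquin san/+ arrays and from 0.15 to 0.60 on the wild-type arrays, and differed by 0.95 (limma, SE 0.30, adjusted p = 0.883; exact permutation p = 0.00408, unadjusted) and by 0.56 without both displaced arrays and replicate F. Gzmb, encoding granzyme B, differed by 0.89 (SE 0.33; exact permutation p = 0.0198), and by 0.37 without both displaced arrays and replicate F. Prf1, encoding perforin, differed by 0.46 (SE 0.26) on the 12 well-placed arrays, since the displaced arrays hold no value for it, and by 0.30 without replicate F. Gzma and Ccl5 differed by 1.33 (SE 0.88) and 1.14 (SE 0.59), and by 0.67 and 0.54 without both displaced arrays and replicate F. Gzmk, Fasl and Ifng, named after their values were seen, were not highest on replicate F. Gzmk, encoding granzyme K, was at 0.46 there and reached 1.01 on another Roquin san/+ array, and it differed by 2.44 (limma, SE 0.78, adjusted p = 0.883; exact permutation p = 0.0175, unadjusted) and by 2.01 without both displaced arrays and replicate F. Fasl and Ifng differed by -0.01 and 0.41.

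Of the transcription factors that NK cells share with effector T-cells, Eomes was at -0.04 on replicate F, from -2.26 to -1.05 on the remaining Roquin san/+ arrays and from -3.01 to -1.80 on the wild-type arrays. It differed by 1.01 (limma, SE 0.33, adjusted p = 0.883; exact permutation p = 0.0140, unadjusted) and by 0.91 without both displaced arrays and replicate F. Tbx21 (T-bet) differed by 0.25 (SE 0.30) and Il2rb, a receptor chain for IL-2 and IL-15, by 0.39 (SE 0.22), and by 0.16 and 0.14 without both displaced arrays and replicate F.

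The genes outside the list that were most like the members were ranked by Pearson's r with the mean of the 11 tested member probes. Over the 12 well-placed arrays the 5 highest of 21612 genes were a transcript cluster without a symbol (r = 0.96), Klra16 (0.96), Sulf2 (0.95), Klra22 (0.94) and Klra7 (0.94), with Klra7 also on the pathway list. The Klra genes encode the Ly49 receptors of NK cells and are so alike in sequence that their probes may share targets. Without the 2 farthest arrays these 4 named genes had r of 0.69, 0.57, 0.64 and 0.66. Over the 11 arrays without replicate F the 5 highest were Hmbox1 (0.92), Dhrs13os (0.91), Lrrc2 (0.89), Uevld (0.89) and a transcript named only by its position (0.92), with no NK receptor among them. These are the highest of many correlations over few arrays that share libraries and scaling.

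Promoter sequences from RefSeq, of 250 bases before to 50 after the start of transcription, were found for 5 of the 7 genes. The letters TGTGGT or their complement ACCACA, the core that RUNX factors bind, occurred in the promoters of all 5, as in 18.9% of the 27025 genes in the table, and the letters TCACAC or GTGTGA, the core of T-box sites, in those of Ncr1 and Klre1, as in 16.4% of all genes. No match of one motif overlapped a match of the other. The 5 genes were not chosen without sight of their levels, and a match of letters is not a binding site. The stretches of 40 bases below hold the RUNX core in capitals, read along the gene, with the position of its first base relative to the start.
Ncr1, at -41, chr7:4337657-4337696 (plus strand): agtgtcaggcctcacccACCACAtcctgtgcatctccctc
Klre1, at -229, chr6:129577967-129578006 (plus strand): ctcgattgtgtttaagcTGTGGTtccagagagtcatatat
Klrk1, at -129, chr6:129623971-129624010 (minus strand): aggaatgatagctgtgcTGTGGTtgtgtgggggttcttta
Klrc1, at -87, chr6:129679038-129679077 (minus strand): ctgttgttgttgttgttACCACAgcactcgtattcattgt
Klrb1c, at -89, chr6:128788708-128788747 (minus strand): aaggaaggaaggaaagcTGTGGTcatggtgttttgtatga
These coordinates are in GRCm38.p6 and are not comparable with the mm9 positions of the probes.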

How the data were processed

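The authors deposited 1 scanner output per array, made per the labels with Agilent Feature Extraction 10.5.1.1, whose processed intensity is background-subtracted with a floor value given to spots not above background. They also deposited a table of log2 values of the same arrays, with a method not given in the sources used here. The paper given with the series describes other arrays, and nothing but style was taken from it. The members and lists were chosen with earlier results of these data known.

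Over 169 shifts of up to 6 rows or columns, 2 of the 14 arrays needed a move of 2 rows, which left 328 spots of each without a value. Control spots and outlier flags were left out (flags that compare spots of a name were not used on the moved arrays), spots of a probe were averaged as log2, and from each array the 75th percentile of 24081 probes, those well above background on every well-placed array, was subtracted. The 33114 probes well above background on at least 6 of these 12, whatever their genotype, entered lmFit and eBayes of limma 3.58.1 under R 4.3.3 (Benjamini-Hochberg, threshold 0.05). Member probes were also tested by exact permutation. Python 3.11.15, numpy 2.4.6 and pandas 2.3.3 read the arrays, and matplotlib 3.10.9 drew the figures. On simulated data of 33114 probes, 100 of them changed by each size, the same fit recovered 25% of log2 changes of 1 and 73% of log2 changes of 2. The simulated noise was normal and independent between probes, with no slide effect, floor values or outlying array. These shares are therefore not the power of the comparison made here. The number of arrays limits the precision.

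Genes named were the 7 members, the adaptors, ligands, partners and main effectors on a fixed NK pathway list, called genes of that list, and the 5 genes most like the members. A listed gene was read from its tested probe of highest mean. Alternatives covered background correction (normexp, offset 50), normalization, filter, slide, replicate letter, variance trend, the authors' values, the deposited names and leaving out arrays. The letters did not pair the arrays: same-letter deviations correlated from -0.38 to 0.44.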

Additional observations from a re-analysis of the deposited data

Results flagged for a closer look

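Each probe was looked at in each genotype's 7 arrays for an end value far from its neighbour, as the gap divided by the group's range, with a limit of 0.568. Of the 26 groups tried, 5 passed. The members had been chosen for their levels on Roquin san/+ replicate F, so the 4 of them that concern this sample repeat that choice, are no test, and cannot be set against the 1 in 20 groups that chance passes. Replicate F was such an upper end for the brightest Klrb1c probe (0.639, level -0.07 with the next at -2.01), for both Klrk1 probes (0.625 and 0.580, levels -0.37 and -1.87) and for the brightest Klre1 probe (0.595, level -1.44 with the next at -4.16). The fifth was wild-type replicate E, a displaced array, for the dimmest Klre1 probe (0.752), whose value there is that array's lowest signal and only an upper bound.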

How the results depend on the processing

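The count of members called was 0 under all 32 alternatives, and so was the count of other NK pathway genes called. No probe on the whole array was called under any of them, so these counts show nothing particular to the members. By the brightest probe of a gene, Klrg1 stayed higher (0.23 to 1.15) and Klrb1c lower (-0.78 to -0.10) in Roquin san/+ under all 32. The other Klrb1c probes turned higher with normexp (dimmest probe, 0.15) and with normexp without both displaced arrays (middle and dimmest, 0.06 and 0.37). Neither of these 2 probes was well above background on the dim Roquin san/+ replicate C. Klrc1, fitted only without the filter, was at -0.35. With slide 2 alone Ncr1 (-1.06), Klre1 (-0.78), Klrd1 (0.15) and Klrk1 (-0.23) changed sign. Klrk1, at 0.03 over all arrays, also did so with quantile normalization (-0.23), with the percentile over all probes (-0.090), with the authors' log2 values (-0.15), and without both displaced arrays and replicate F (-0.38) or replicates C and F (-0.19), where Klre1 was at -0.026. Leaving out 1 array at a time, Klrk1 ran from -0.41 (without Roquin san/+ replicate F) to 0.25, Klrd1 from -0.59 to 0.068 (without Roquin san/+ replicate C), Ncr1 from 0.50 to 1.44 and Klre1 from 0.16 to 0.92. The cause of these changes was not tested. With the replicate block Klrg1 differed by 0.62 (limma, adjusted p = 0.888), and no call changed. Leaving out both displaced arrays together with replicate F, with C and F, with the slide block or with normexp, and the percentile over probes detected on all 14 arrays, were chosen after seeing the data. Signals near background limit Ncr1, Klrc1 and Klre1.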
